A study of Homo sapiens with 6 samples.

Results

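Metalloproteases that remodel the pericellular space and the tissue inhibitors that block them were examined with and without knockdown of RRM2. The cells are labelled PANC-1, the name of an established human line of pancreatic ductal carcinoma. Ribonucleotide reductase, whose small subunit RRM2 encodes, supplies the deoxynucleotides for DNA synthesis. The genes were defined by their names, as the protein-coding genes called MMP, ADAM, ADAMTS or TIMP with a number, and 66 of the 42902 genes in the count table met this rule. They comprised 23 MMP, 20 ADAM, 19 ADAMTS and 4 TIMP genes. Poly(A) RNA was sequenced from 3 libraries of cells with a control hairpin (labelled NC, treatment shControl and genotype WT, called shNC here) and 3 of cells with a hairpin against RRM2 (shRRM2), with a strand-preserving kit. The labels give no time, number of hairpins or number of clones, and leave unsaid whether replicates are separate cultures. The p-values therefore measure only the spread among these 6 libraries, possibly a technical one.

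Total counts ran from 16606947 to 23300433 per library. Levels are given as CPM, the usual unit of counts scaled to library size, and 1 CPM rests on 16.6 to 23.3 counts. RRM2 itself was counted 3567, 4435 and 3342 times in shNC but 716, 808 and 716 times in shRRM2, at a log2 fold change of −2.31 (adjusted p = 3.72e-29). Of the markers of ductal and epithelial lines, KRT8, KRT18 and KRT7 were abundant, while KRT19 had 0 to 6 counts per library and EPCAM a mean of 0.261 CPM in shNC and 0.697 CPM in shRRM2. Of the 8 markers of this list 7 were tested, 6 were higher and KRT7 was lower in shRRM2. Over all tested genes 26% were higher and 26.1% lower. EPCAM was below the filter on low counts in every shNC library and entered the test only through shRRM2. The summed level of the list was 3062 CPM in shNC and 4256 CPM in shRRM2. CDKN2A, a gene usually reported as deleted in PANC-1, had 4486 to 6771 counts in every library. These counts do not match a deletion, and the identity of the cells was not tested beyond the label.

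Matrix metalloproteinases (MMPs) are zinc-dependent enzymes, secreted or held at the membrane, that cut collagens, laminins and other matrix proteins. ADAMs are mostly membrane-anchored relatives that release the extracellular parts of growth factors, cytokine receptors and adhesion molecules, and ADAMTS enzymes are secreted proteases with thrombospondin repeats that act on proteoglycans, procollagens and other matrix components. The 4 TIMP proteins occupy the active site of these enzymes and differ in their preferences, TIMP3 being the member best known for inhibiting ADAM17 and aggrecan-cleaving ADAMTS enzymes. In pancreatic cancer many MMPs are made by the surrounding stroma rather than by the tumour cells, and MMP7 is known as an MMP of the epithelial tumour cells themselves.

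The promoters of genes on which the results below turn are shown first, from 250 bases before to 50 after the start of each gene (RefSeq, GRCh38.p14), written 5′ to 3′ on the strand of the gene. MMP7 and MMP10 come from the MMP cluster of chromosome 11, in which MMP7 was counted far above MMP10, and TIMP1, TIMP3 and TIMP4 are inhibitors that rose together. Capitals mark TGANTCA (the AP-1 motif), TATAAA (the TATA box) and GGGCGG (an SP1 motif), each searched on both strands.
MMP7 (chr11:102530698-102530997, minus strand): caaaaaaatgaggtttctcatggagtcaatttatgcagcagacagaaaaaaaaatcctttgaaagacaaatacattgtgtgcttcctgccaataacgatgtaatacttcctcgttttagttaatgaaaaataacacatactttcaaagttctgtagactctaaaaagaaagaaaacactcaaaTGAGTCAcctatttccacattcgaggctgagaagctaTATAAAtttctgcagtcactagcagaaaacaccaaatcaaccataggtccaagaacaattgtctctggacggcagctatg
MMP10 (chr11:102780579-102780878, minus strand): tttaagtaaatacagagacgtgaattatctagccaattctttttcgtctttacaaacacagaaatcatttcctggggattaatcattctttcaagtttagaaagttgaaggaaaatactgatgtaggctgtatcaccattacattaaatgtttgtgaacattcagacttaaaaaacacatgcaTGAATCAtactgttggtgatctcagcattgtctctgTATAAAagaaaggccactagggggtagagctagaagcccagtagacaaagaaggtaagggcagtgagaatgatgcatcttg
TIMP1 (chrX:47582186-47582485, plus strand): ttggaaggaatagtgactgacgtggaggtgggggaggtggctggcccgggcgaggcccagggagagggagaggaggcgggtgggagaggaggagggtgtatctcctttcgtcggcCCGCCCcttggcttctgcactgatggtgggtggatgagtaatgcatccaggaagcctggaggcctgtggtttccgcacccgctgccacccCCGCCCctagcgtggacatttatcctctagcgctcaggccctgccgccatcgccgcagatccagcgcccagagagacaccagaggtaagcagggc
TIMP3 (chr22:32801455-32801754, plus strand): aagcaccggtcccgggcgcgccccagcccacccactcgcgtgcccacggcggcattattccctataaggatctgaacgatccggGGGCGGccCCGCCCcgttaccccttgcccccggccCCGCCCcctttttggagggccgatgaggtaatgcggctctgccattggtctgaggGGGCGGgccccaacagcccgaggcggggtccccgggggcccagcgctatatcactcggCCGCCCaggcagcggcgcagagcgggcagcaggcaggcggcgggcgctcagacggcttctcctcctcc
TIMP4 (chr3:12158863-12159162, minus strand): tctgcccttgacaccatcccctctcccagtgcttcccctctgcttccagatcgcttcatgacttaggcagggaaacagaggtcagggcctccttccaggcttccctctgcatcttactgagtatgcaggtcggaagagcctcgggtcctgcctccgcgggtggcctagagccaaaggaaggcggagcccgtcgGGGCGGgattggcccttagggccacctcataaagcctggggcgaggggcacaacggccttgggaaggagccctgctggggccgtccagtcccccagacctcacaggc

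The MMP7 and MMP10 promoters share a layout. The AP-1 motif begins at position −67 in both, counted from the first base of the gene, and the TATA box at −30 in MMP7 and −31 in MMP10. Both are poor in G and C, at 35.7% and 36.3%, whereas the TIMP1, TIMP3 and TIMP4 promoters have 65.0%, 72.7% and 64.0% and contain GGGCGG but neither TGANTCA nor TATAAA. The promoter table held 39 of the 66 genes. TGANTCA was present in 4 of these 39 (ADAMTS12, MMP10, MMP20 and MMP7) and in 7.76% of all 27305 promoters of the same length, TATAAA in 8 of 39 and in 12.0% of all, and GGGCGG in 26 of 39 and in 44.6% of all. Among the 11701 promoters of genes that passed the count filter the shares were 4.81% for TGANTCA, 5.74% for TATAAA and 68.0% for GGGCGG, beside 1, 3 and 15 of the 19 tested family genes in the table. The motif AGGAAG (ETS) was in 10 of 39 against 33.7% of all promoters, and the TGF-beta inhibitory element was in 1 of 39, ADAMTS13, against 0.842% of all. A match is a description of the letters in these windows.

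Only part of the 4 families was transcribed at a testable level. Of the 66 genes, 33 passed the filter on low counts, 21 were below it with at least 1 read and 12 had 0 counts in every library. A count of 0 over a group allows a level of up to 0.0519 CPM in shNC and 0.0545 CPM in shRRM2, taking 3 counts of the group total and counting error only. Among the genes with 0 counts were the sperm-associated ADAM2 and ADAM18, the enamel protease MMP20, MMP16, MMP26, ADAM19 and ADAMTS20. The filter was reached in all 6 libraries by 26 genes, in shRRM2 but not in every shNC library by MMP7, ADAMTS4 and ADAMTS13, and in shNC but not in every shRRM2 library by MMP23B and ADAM21. Since such genes can enter the test through the group where they are high, the counts of called genes below are a description.

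The measured genes split by family. In shRRM2, 13 of the 33 tested genes were higher and 7 lower than in shNC at an adjusted p below 0.05 (edgeR quasi-likelihood test), and 13 did not pass. Across all 15866 tested genes 52.1% passed, 26% higher and 26.1% lower, against which the 60.6% of these families is close to the background. The higher genes were all 4 TIMPs, 5 of 9 tested ADAMTS genes, 3 of 8 tested MMPs and 1 of 12 tested ADAMs, and the 7 lower genes were all ADAMs. With library size alone as the scaling the split was 14 higher and 4 lower. The median log2 fold change was 0.58 for the TIMPs, 0.45 for the ADAMTS genes, 0.04 for the MMPs and −0.26 for the ADAMs that passed the filter, beside −0.01 for all tested genes. In 22 of the 33 genes no library of 1 group reached the range of the other, where the share over all tested genes was 57.8%.

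**Figure D1:**
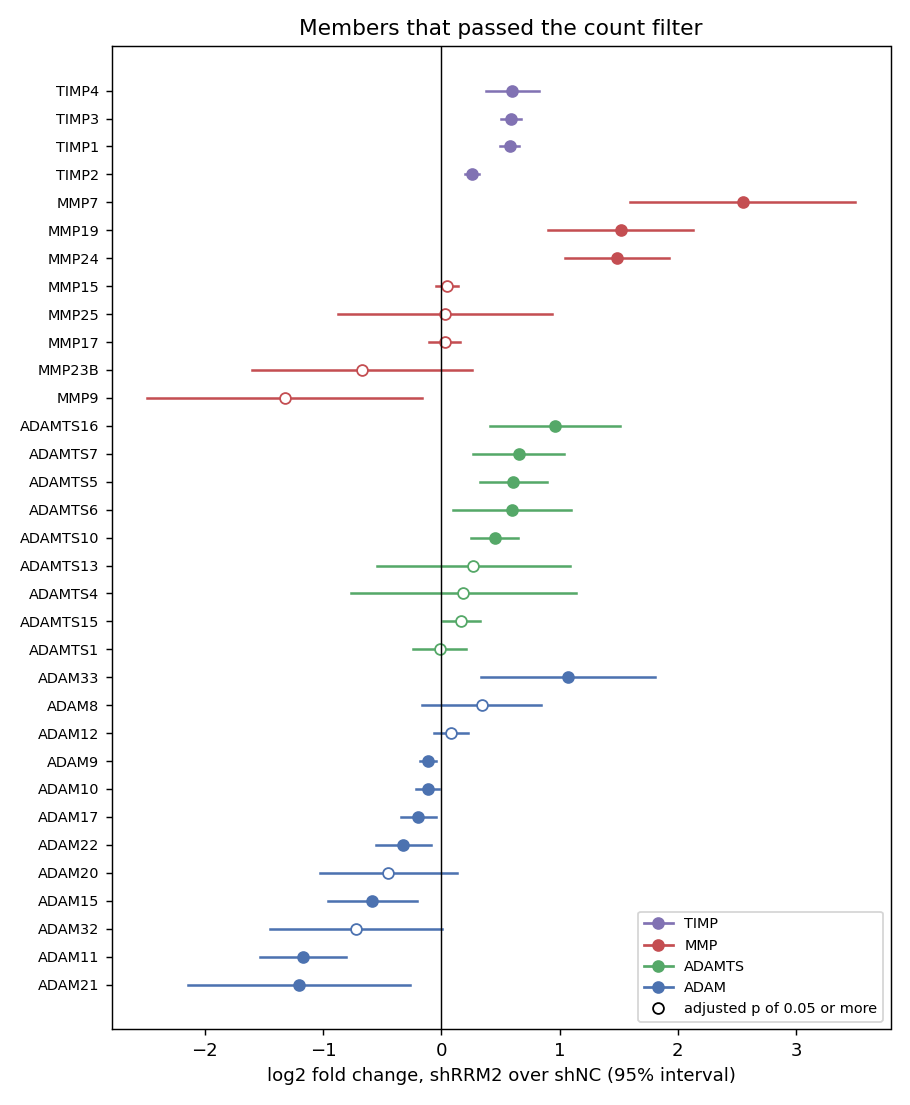
Log2 fold change of shRRM2 over shNC (x axis) for the 33 tested genes of the 4 families, with bars for the 95% interval from edgeR and colours for the family. Filled points have an adjusted p below 0.05, and all 4 TIMPs lie to the right of 0 while 7 of the 8 filled ADAM points lie to the left.

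All 4 inhibitor genes rose in the knockdown, and TIMP2 had the highest CPM of the whole set. TIMP1 (Gene ID 7076, chromosome X, 47582436 to 47586789) encodes a secreted inhibitor of most soluble MMPs and stood at 144, 147 and 138 CPM in shNC and at 208, 226 and 207 CPM in shRRM2. Every shRRM2 library was above every shNC library, and the log2 fold change came to 0.58 (SE 0.0390, adjusted p = 2.49e-14). In bulk RNA a change in the mix of cells and a change in RNA per cell cannot be told apart.

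TIMP3 (Gene ID 7078, chromosome 22, 32801705 to 32863041), the inhibitor that binds to the matrix, had 94.96, 93.2 and 94.6 CPM in shNC and 138, 147 and 140 CPM in shRRM2. No shNC library reached the shRRM2 range, with a TIMP3 log2 fold change of 0.59 (SE 0.0411, adjusted p = 5.46e-14). TIMP4 (Gene ID 7079, chromosome 3, 12153068 to 12158912), the family member of restricted tissue distribution, was the least abundant at 10.7, 10.2 and 9.29 CPM in shNC and 15.8, 14.7 and 15.4 CPM in shRRM2. Its log2 fold change of 0.60 (SE 0.110, adjusted p = 2.46e-05) was close to those of TIMP1 and TIMP3.

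TIMP2 (Gene ID 7077, chromosome 17, 78852977 to 78925387) inhibits MMPs and also takes part in the activation of pro-MMP2 at the cell surface. It was counted at 601, 571 and 584 CPM in shNC and at 709, 685 and 705 CPM in shRRM2. Its rise was the smallest of the 4, 0.26 on the log2 scale (SE 0.0292, adjusted p = 4.15e-09), with a 95% interval of 0.20 to 0.32 that lies below the intervals of TIMP1 (0.50 to 0.66), TIMP3 (0.51 to 0.67) and TIMP4 (0.38 to 0.82). The difference between these folds was not itself tested. The 4 rises kept their call with every scaling, filter, test and left-out library that was run.

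TIMP1, TIMP3 and TIMP4 lie inside the bodies of the synapsin genes SYN1, SYN3 and SYN2, on the opposite strand. SYN3 had 4 to 13 counts per library, beside 1557 to 2929 for TIMP3, and SYN2 7 to 17, beside 153 to 292 for TIMP4. SYN1 went from 5, 5 and 9 counts in shNC to 21, 20 and 21 in shRRM2 (log2 fold change 1.71, adjusted p = 0.00222), beside 2275 to 4488 counts for TIMP1. SYN1 was below the filter in every shNC library and entered the test only through shRRM2, so its p is no independent test. The overlap is one of gene bodies, and that of exons was not examined. Strand use in the counting is not stated in these sources, so reads in stretches shared by a pair cannot be told apart.

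**Figure D2:**
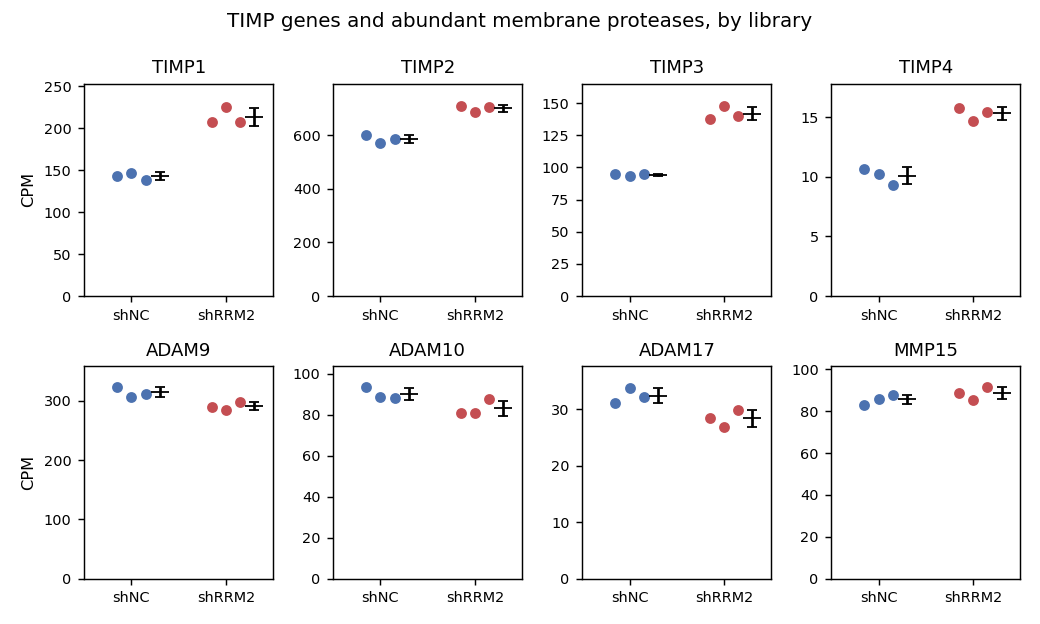
CPM (y axis, from 0) in each library of shNC and shRRM2 for the 4 TIMP genes, ADAM9, ADAM10, ADAM17 and MMP15, with a bar for the mean and SD of the 3 libraries. The TIMP panels show separated groups that rise, the ADAM panels small falls, and MMP15 groups that overlap.

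Markers of other cells that make TIMPs and MMPs were counted in the same libraries. Of 11 markers of fibroblasts and stellate cells 4 were tested and 2 rose, PDGFRB by 1.65 and FAP by 2.78 on the log2 scale. ACTA2 (0.06, edgeR adjusted p = 0.909) and RGS5 (−0.31, adjusted p = 0.540) did not pass. The summed level of these 11 markers was 11.1 to 12.9 CPM in shNC and 32.1 to 36.1 CPM in shRRM2. FAP, at a mean of 0.245 CPM in shNC, entered the test only through shRRM2. The fibroblast transcripts DCN, LUM and COL1A2 had 8, 13 and 7 counts over all 6 libraries, and COL3A1 was counted 3, 2 and 0 times in shNC against 15, 9 and 11 times in shRRM2. Of 13 leukocyte markers CSF1R alone was tested, and it rose by 2.02. The pan-leukocyte gene PTPRC had 5 counts in all and MPO, CSF3R, AIF1, CD3E and MS4A1 had 0, and the list summed to 1.52 to 2.00 CPM in shNC and 3.85 to 5.19 CPM in shRRM2. Of 7 endothelial markers VWF and CDH5 were tested and higher, VWF entering only through shRRM2, PECAM1 had 17 counts and KDR 0 over all libraries, and the list summed to 1.66 to 1.82 CPM against 4.93 to 5.60 CPM. Beside the calls in these 3 lists, 26% of all tested genes were higher and 26.1% lower. All 3 lists had a higher summed level in shRRM2, but not every marker rose. PDGFRB went from a mean of 9.10 CPM in shNC to 28.6 CPM in shRRM2, and CSF1R from 1.00 to 4.09 CPM. These genes made up most of the fibroblast and leukocyte sums. The leukocyte marker CD14 was lower, with 8, 11 and 14 counts in shNC against 6, 7 and 4 in shRRM2. The endothelial marker CLDN5 had 2, 3 and 4 against 0, 0 and 2 counts, and both were below the filter. The part of the 3 lists in the results was not tested.

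Per kilobase of transcript, TIMP1 and TIMP2 led the whole set in shNC with 160.3 ± 5.04 and 160.3 ± 4.19 CPM per kb (SD, n = 3), levels that do not differ beyond their spread. ADAM9 followed with 81.8 ± 2.20 CPM per kb, then TIMP3 with 20.5 ± 0.205, MMP15 with 20.1 ± 0.524 and MMP17 with 19.7 ± 1.93, the last 3 within their spread of each other. In shRRM2, TIMP1 stood at 239.5 ± 12.0 CPM per kb and TIMP2 at 191.7 ± 3.48, so that these 2 no longer overlapped. Below them in shNC came ADAM10, at 7.88 ± 0.259 on a transcript model of 11431 bases, and ADAM17, at 7.34 ± 0.303 CPM per kb. TIMP4 stood at 6.10 ± 0.431 CPM per kb in shNC and at 9.27 ± 0.334 in shRRM2.

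**Figure D3:**
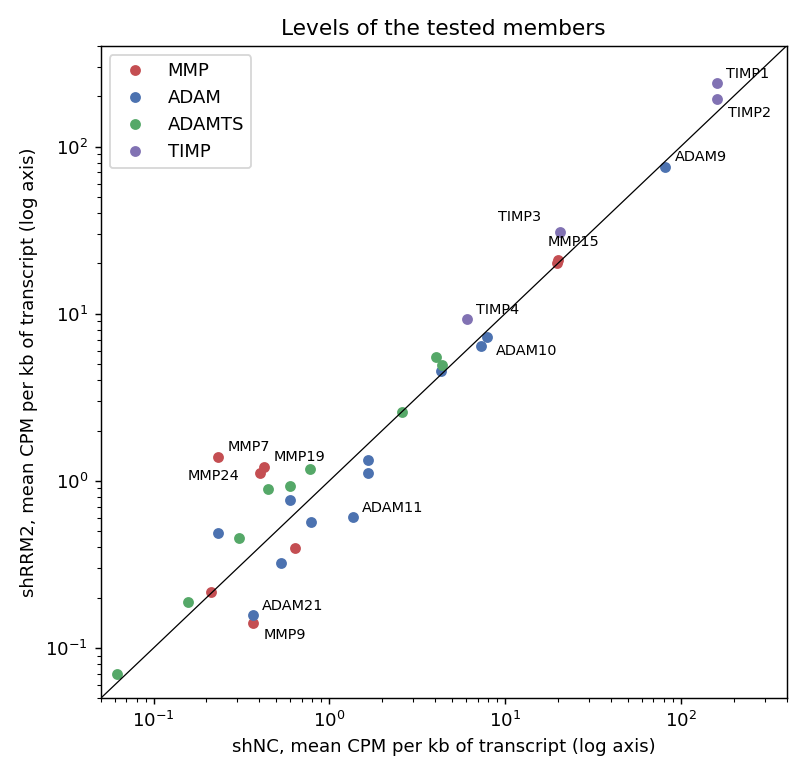
Mean CPM per kb of transcript in shNC (x axis, log) and shRRM2 (y axis, log) for the 33 tested genes, coloured by family, with the line of equal level. The 4 TIMPs lie above the line at the upper end, ADAM9, ADAM10 and ADAM17 just below it, and MMP7, MMP19 and MMP24 well above it at low level.

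Inhibitor RNA was also compared with the summed RNA of the MMP, ADAM and ADAMTS genes, among them 8 ADAMs without a complete catalytic motif. The 4 TIMPs summed to 832.6 ± 15.8 CPM in shNC and 1071 ± 3.22 CPM in shRRM2 (SD, n = 3 each), while the 62 genes of the other families summed to 715.7 ± 13.7 and 704.8 ± 10.03 CPM. Per kb of transcript the ratio of TIMP RNA to the RNA of these 62 genes was 2.099, 2.14 and 2.09 in shNC against 2.89, 2.99 and 2.80 in shRRM2. Every shRRM2 library was above every shNC library, and the mean ratio was 1.37 times higher in shRRM2. This ratio does not depend on the scaling of the libraries, and an exact permutation test of 3 against 3 libraries cannot give a p below 0.1. The ratio concerns RNA, of which ADAM9 alone made 43.9% ± 0.344 of the CPM of the 62 genes in shNC, and without ADAM9 it was 1.29 times higher.

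Most MMP RNA came from membrane-type enzymes, with 135.5 of the 139.5 CPM of the family in shNC. MMP15, a transmembrane MMP, had 83.1, 86.0 and 87.5 CPM in shNC and 88.8, 85.5 and 91.6 CPM in shRRM2, with overlapping groups and a log2 fold change of 0.05 (95% interval −0.04 to 0.14, adjusted p = 0.375). MMP17, which is held to the membrane by a lipid anchor, was at 47.4 ± 4.66 and 48.5 ± 1.82 CPM, a difference of 0.03 with an interval of −0.10 to 0.16. MMP25, the other lipid-anchored MMP, had 0.756 ± 0.2298 and 0.767 ± 0.390 CPM. MMP14, the membrane-type MMP that cleaves fibrillar collagen and activates pro-MMP2, had 0, 0 and 1 counts in shNC against 2, 5 and 3 in shRRM2, and MMP2 itself had 0 to 4 counts per library.

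MMP24 was the membrane-type gene that rose. It (Gene ID 10893, chromosome 20, 35226690 to 35276998) encodes an enzyme best known from the nervous system, and it had 1.71, 1.65 and 1.94 CPM in shNC and 4.41, 5.94 and 4.42 CPM in shRRM2. All 3 shRRM2 libraries were above all 3 shNC libraries (log2 fold change 1.49, SE 0.217, adjusted p = 5.74e-07). MMP24OS, whose body overlaps MMP24 on the other strand, had 465 to 655 counts in shNC and 774 to 930 in shRRM2 and rose by 0.65 (adjusted p = 3.65e-10), against 30 to 38 and 78 to 118 counts for MMP24. Reads in the stretch shared by the pair cannot be told apart without knowing how strand was counted.

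MMP7 and MMP19 rose from low levels. MMP7 (Gene ID 4316, chromosome 11, 102520508 to 102530747), matrilysin, a small secreted protease of glandular epithelium, had 1, 7 and 7 counts in shNC against 33, 27 and 27 in shRRM2. This is 0.262 ± 0.188 CPM against 1.57 ± 0.263 CPM (log2 fold change 2.55, SE 0.468, adjusted p = 2.38e-05) with an interval of 1.596 to 3.50. MMP7 was below the filter in every shNC library and entered the test only through shRRM2, so these values describe the difference and its p is no independent test. MMP19 (Gene ID 4327, chromosome 12, 55835433 to 55842936), a secreted enzyme that cuts basement membrane proteins, had 1.31, 0.694 and 0.850 CPM in shNC and 3.00, 2.57 and 2.54 CPM in shRRM2. Its log2 fold change came to 1.52 (SE 0.301, adjusted p = 6.92e-05), and the groups were apart for both genes. The pseudogene TMEM198B, whose body overlaps that of MMP19, rose by 0.60 (adjusted p = 0.000259). Of all tested genes, 5.08% had both an adjusted p below 0.05 and a log2 fold change of at least 1, as MMP7, MMP19, MMP24 and ADAM33 did.

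The gelatinase MMP9, which cuts denatured collagen and type IV collagen, was lower in mean but did not pass. It had 6, 22 and 21 counts in shNC against 3, 14 and 2 in shRRM2, groups that overlap, with a log2 fold change of −1.32 and a 95% interval of −2.49 to −0.16 (adjusted p = 0.0515). Without shRRM2 replicate 2 the value was −2.56 (adjusted p = 0.00275) and without shNC replicate 1 −1.69 (adjusted p = 0.0151), and it also passed with limma-voom (adjusted p = 0.0377). The antisense gene SLC12A5-AS1 overlaps it and was lower by a log2 fold change of −1.14 (adjusted p = 0.0227). MMP23B had 0.851 ± 0.220 and 0.529 ± 0.210 CPM (adjusted p = 0.227). It has a near-identical copy, MMP23A, with 1 to 7 counts per library.

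MMP7 belongs to a run of 9 MMP genes on chromosome 11, between 102520508 and 102955732, among them matrilysin, collagenases and stromelysins. Summed over these 9 genes, the shNC libraries held 2, 15 and 13 counts and the shRRM2 libraries 53, 49 and 55. Beside MMP7, the interstitial collagenase MMP1 had 0, 1 and 0 counts in shNC against 7, 7 and 17 in shRRM2, and the collagenase MMP13 had 1, 1 and 3 against 11, 4 and 6. For MMP1 and MMP13 every shRRM2 library had more counts than every shNC library, at levels below the filter. MMP12, the macrophage elastase, had 0, 4 and 3 against 0, 11 and 3 counts, which overlap. The stromelysins MMP3 and MMP10 had totals of 3 and 1 counts, MMP8 had 2, and MMP20 and MMP27 had 0. These genes below the filter were not tested, and no fold is given for them.

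**Figure D4:**
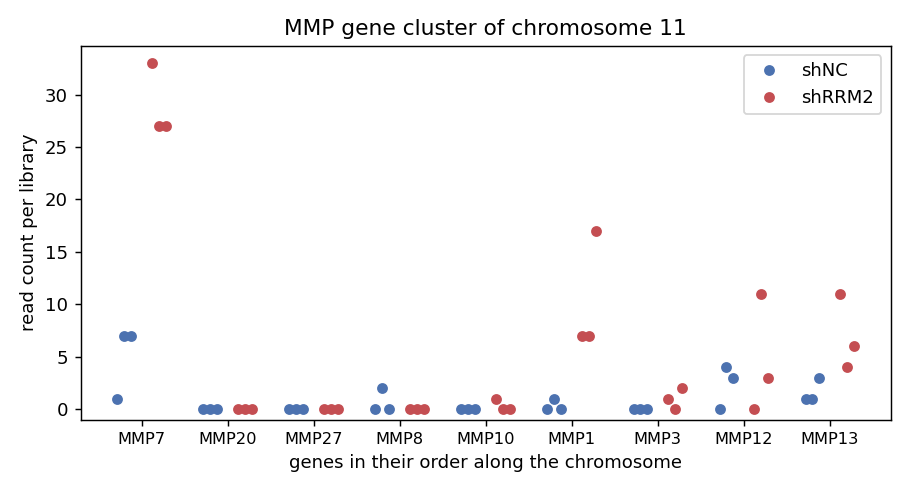
Read counts per library (y axis) of the 9 MMP genes of the chromosome 11 cluster, in their order along the chromosome (x axis), with shNC in blue and shRRM2 in red. MMP7, MMP1 and MMP13 have shRRM2 points above all shNC points, and the other 6 genes have points at or near 0 in both groups or overlap.

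The remaining MMPs below the filter were MMP11, MMP28 and MMP21. MMP11, a stromelysin typical of tumour stroma, had 6, 10 and 7 counts in shNC against 8, 17 and 13 in shRRM2. MMP28 had 2 to 14 counts and MMP21 0 to 4 per library.

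The broadly acting sheddases of the ADAM family were abundant and slightly lower. ADAM9 (Gene ID 8754) was the most abundant gene of the MMP, ADAM and ADAMTS families. It had 323, 307 and 311 CPM in shNC and 289, 285 and 298 CPM in shRRM2. The groups did not overlap, and the log2 fold change came to −0.11 (SE 0.0328, adjusted p = 0.00471), or 92.6% of the level in shNC. ADAM17 (Gene ID 6868), which releases TNF and ligands of the EGF receptor, had 31.2, 33.8 and 32.1 CPM in shNC and 28.5, 26.9 and 29.8 CPM in shRRM2 (log2 fold change −0.19, SE 0.0730, adjusted p = 0.0269). ADAM10 (Gene ID 102), the sheddase of Notch receptors and cadherins, had 93.5, 88.6 and 88.3 CPM against 80.8, 81.0 and 87.6 CPM (log2 fold change −0.12, SE 0.0475, adjusted p = 0.0404).

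These small falls depend on the processing. With library size alone none of the 3 passed (ADAM9 adjusted p = 0.0502, ADAM17 0.0783 and ADAM10 0.173), and with DESeq2 ADAM17 (adjusted p = 0.0596) and ADAM10 (adjusted p = 0.0860) did not. With a filter of 1 CPM in 3 libraries ADAM10 did not pass either (adjusted p = 0.0545). ADAM17 did not pass without shNC replicate 2, shRRM2 replicate 1 or shRRM2 replicate 2 (adjusted p = 0.120, 0.0575 and 0.125), nor ADAM10 without shNC replicate 1, shRRM2 replicate 1 or shRRM2 replicate 2 (adjusted p = 0.157, 0.153 and 0.138).

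ADAM15 fell more than these. ADAM15 (Gene ID 8751, chromosome 1, 155051316 to 155062775), an ADAM with an integrin-binding RGD motif, had 4.63, 5.16 and 4.92 CPM in shNC and 3.85, 2.87 and 3.15 CPM in shRRM2. The 3 shRRM2 libraries were all lower (log2 fold change −0.58, SE 0.186, adjusted p = 0.00861). The readthrough gene ADAM15-EFNA4 shares its locus and had 0 to 2 counts per library, and EFNA4 had 0 in all. DCST1-AS1, whose body also overlaps ADAM15, had 62 to 101 counts per library (log2 fold change 0.30, edgeR adjusted p = 0.144). Reads that lie in ADAM15 and an overlapping gene may have been dropped, since the setting for them is not stated. The level of ADAM15 is therefore uncertain.

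ADAM12, an ADAM of mesenchymal and tumour cells, had 34.2 ± 0.803 and 36.1 ± 2.83 CPM, a difference of 0.08 with a 95% interval of −0.06 to 0.22 (adjusted p = 0.346). ADAM8, best known from leukocytes, had 1.96 ± 0.185 and 2.51 ± 0.237 CPM (adjusted p = 0.254). ADAM33 was the ADAM that rose, from 0.629, 0.781 and 1.15 CPM to 1.47, 1.36 and 2.54 CPM. All shRRM2 libraries were higher (log2 fold change 1.07, SE 0.362, adjusted p = 0.0130). It did not pass without shRRM2 replicate 3, its highest library (0.74, adjusted p = 0.146), without shNC replicate 1 (adjusted p = 0.0594) or shNC replicate 2 (0.0534).

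ADAM20 and ADAM21 are neighbours on chromosome 14 and resemble each other in sequence, so that reads may be split between them. ADAM21 had 21, 15 and 18 counts in shNC against 8, 6 and 9 in shRRM2 (log2 fold change −1.20, SE 0.459, adjusted p = 0.0277). It was below the filter in every shRRM2 library and entered the test only through shNC. These values describe the difference, and the p of ADAM21 is no independent test. No library overlapped the other group, but the call was lost without shNC replicate 1, shNC replicate 3, shRRM2 replicate 1 or shRRM2 replicate 2 (adjusted p = 0.115, 0.0818, 0.0562 and 0.108), with no filter (0.0520) and with DESeq2 (adjusted p = 0.0630). ADAM20 had 2.19 ± 0.571 and 1.58 ± 0.0507 CPM (adjusted p = 0.190).

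Among the ADAMs that lack a complete zinc-binding motif and act as adhesion molecules or ligands, ADAM11 showed the clearest fall. ADAM11 (Gene ID 4185, chromosome 17, 44758988 to 44781846), a neuronal receptor of this kind, had 6.57, 6.12 and 5.95 CPM in shNC and 2.94, 2.47 and 2.87 CPM in shRRM2. The groups were far apart, and the log2 fold change of −1.17 (SE 0.179, adjusted p = 1.33e-06) corresponds to 44.4% of the level in shNC. Of all tested genes, 1.35% had both an adjusted p below 0.05 and a log2 fold change of −1 or below, as ADAM11 and ADAM21 did. ADAM21 had entered the test only through shNC. ADAM22, the receptor for the synaptic protein LGI1, had 16.0, 13.7 and 16.2 CPM in shNC and 11.5, 13.8 and 11.2 CPM in shRRM2 (log2 fold change −0.32, SE 0.113, adjusted p = 0.0176). Its groups overlapped through shNC replicate 2 and shRRM2 replicate 2, and it did not pass without shNC replicate 1 (adjusted p = 0.0654), shNC replicate 3 (0.0690), shRRM2 replicate 1 (0.0694) or shRRM2 replicate 3 (0.0889). ADAM32 was at 1.39 ± 0.218 and 0.841 ± 0.119 CPM, with groups that were apart but an adjusted p of 0.0893.

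The secreted ADAMTS enzymes that passed were all higher in the knockdown. ADAMTS10, an enzyme that associates with fibrillin microfibrils, was the most abundant of the 5, with 17.5, 17.6 and 15.7 CPM in shNC and 22.7, 26.5 and 20.2 CPM in shRRM2 (log2 fold change 0.45, SE 0.0972, adjusted p = 0.000197). The groups were apart. ADAMTS7, which degrades cartilage oligomeric matrix protein, had 2.91, 2.78 and 4.13 CPM against 4.81, 5.19 and 5.30 CPM and rose by 0.65 (SE 0.190, adjusted p = 0.00416).

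ADAMTS16, known from kidney and gonad, had 3.31, 2.43 and 0.972 CPM in shNC and 4.98, 4.08 and 4.20 CPM in shRRM2 (log2 fold change 0.96, SE 0.266, adjusted p = 0.00398). The groups were apart, and without its lowest library, shNC replicate 3, the value was 0.63 (adjusted p = 0.0200). The noncoding gene LOC101929200 overlaps the body of ADAMTS16 and had 37 to 74 counts per library, beside 16 to 88 for ADAMTS16. Its log2 fold change was 0.38 (edgeR adjusted p = 0.151), and shared reads of the pair cannot be told apart. ADAMTS6, a relative of ADAMTS10, had 2.63, 1.39 and 2.73 CPM against 3.34, 3.47 and 3.20 CPM and rose by 0.60 (SE 0.245, adjusted p = 0.0395). Its call rested on shNC replicate 2, without which the value was 0.31 (adjusted p = 0.295). It was also lost without shRRM2 replicate 1, 2 or 3 (adjusted p = 0.0701, 0.0740 and 0.0507) and with DESeq2 (adjusted p = 0.0837).

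The proteoglycan-cleaving ADAMTS genes did not move as 1 group. ADAMTS5, the main aggrecanase of cartilage, had 7.14, 7.11 and 6.80 CPM in shNC and 12.0, 11.8 and 8.40 CPM in shRRM2, a rise of 0.61 (SE 0.140, adjusted p = 0.000419). Its neighbour on chromosome 21, ADAMTS1, had 13.5 ± 1.30 and 13.3 ± 0.685 CPM, a difference of −0.01 with a 95% interval of −0.23 to 0.21 (adjusted p = 0.938). ADAMTS15, the most abundant gene of this class, had 24.7, 24.6 and 25.0 CPM in shNC and 27.4, 27.8 and 28.4 CPM in shRRM2, with groups apart, a difference of 0.17 and an adjusted p of 0.0590. It passed with library size alone (0.21, adjusted p = 0.0215) and with a filter of 1 CPM in 3 libraries (0.18, adjusted p = 0.0441). ADAMTS4 and ADAMTS13, the latter the protease of von Willebrand factor, stood below 1 CPM on average and did not pass (adjusted p = 0.762 and 0.596).

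The procollagen N-proteinases ADAMTS2, ADAMTS3 and ADAMTS14 were below the filter. ADAMTS3 had 3, 1 and 1 counts in shNC against 6, 12 and 10 in shRRM2, ADAMTS14 had 2 to 8 and ADAMTS2 0 to 3 per library. ADAMTS9 had 5 counts in shRRM2 replicate 1 and 0 elsewhere. ADAMTS8, ADAMTS12 and ADAMTS19 had totals of 2, 1 and 1 counts. Among the ADAMs below the filter, ADAM28 and ADAM7 had 2 counts each in all and ADAM23 had 1.

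**Figure D5:**
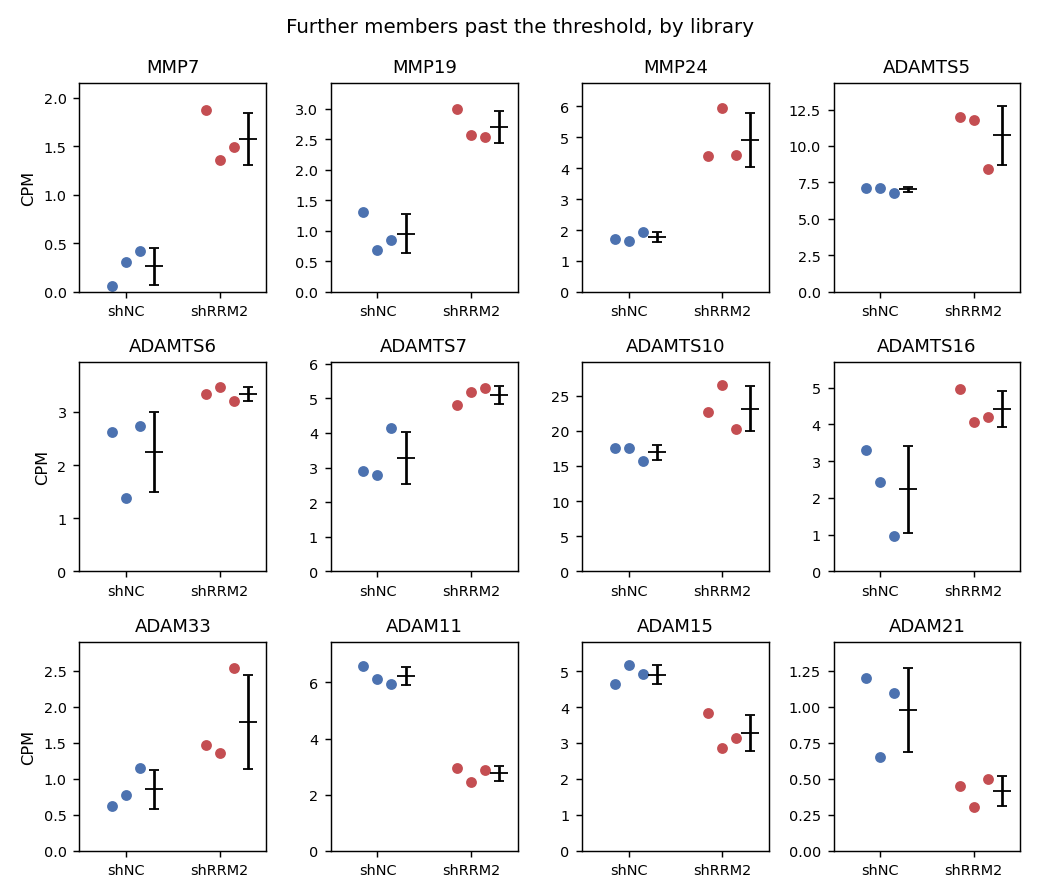
CPM (y axis, from 0) in each library of shNC and shRRM2 for 12 further genes with an adjusted p below 0.05, with a bar for the mean and SD of the 3 libraries. The MMP, ADAMTS and ADAM33 panels have shRRM2 above shNC, and ADAM11, ADAM15 and ADAM21 have it below.

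Genes that activate, anchor or restrain MMPs rose or did not pass, and none fell. Of 15 listed, 12 were tested and 7 were higher, where 26% of all tested genes were higher and 26.1% lower. LCN2, a lipocalin that binds and stabilises MMP9, went from 0.196 ± 0.0407 to 3.14 ± 0.334 CPM (log2 fold change 3.98). It was below the filter in shNC, with 3, 4 and 4 counts, and entered the test only through shRRM2, so this is a description. TFPI2, a Kunitz-type inhibitor of serine proteases, rose from 5.59 ± 0.401 to 18.6 ± 2.14 CPM (1.73, adjusted p = 1.12e-13), and the tetraspanin CD9, a partner of several ADAMs, from 149.0 ± 7.54 to 217.7 ± 2.99 CPM. SERPINH1, the collagen chaperone, rose by 0.35 and SH3PXD2A, the scaffold of invadopodia, by 0.24. FURIN, the convertase that activates membrane-type MMPs and ADAMs, was at 265.9 ± 8.96 and 266.6 ± 7.42 CPM (adjusted p = 0.941). The MMP inhibitor RECK had 16.0 ± 0.910 and 15.7 ± 0.815 CPM (adjusted p = 0.824), and BSG, the MMP inducer, 720.3 ± 46.6 and 750.3 ± 17.4 CPM (adjusted p = 0.181). BSG passed with library size alone (0.10, adjusted p = 0.0179).

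Of 13 genes listed here as partners of ADAM10 and ADAM17, 6 were higher and 3 lower, beside 26% and 26.1% of all tested genes. The partnerships were not examined in these data, and some of the 13 may serve other ADAMs. RHBDF1, an iRhom that carries ADAM17 to the cell surface, rose from 34.8 ± 1.76 to 59.2 ± 0.938 CPM (log2 fold change 0.77, adjusted p = 8.00e-13), and FRMD8, which stabilises this complex, rose by 0.25. The other iRhom gene, RHBDF2, fell from 13.5 ± 1.12 to 10.5 ± 0.829 CPM (−0.37, adjusted p = 0.00808), a call lost without shNC replicate 2 (−0.30, adjusted p = 0.0678). Of the tetraspanins that escort ADAM10, TSPAN10, TSPAN15 and TSPAN5 rose by 1.02, 0.51 and 0.48, while TSPAN33 (−0.75, adjusted p = 0.0994), TSPAN14 (−0.07) and TSPAN17 (0.09) did not pass. SH3GL2, an endophilin on the same list, rose by 0.83.

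Of 29 tested substrates of these sheddases 20 were higher and 3 lower, where 26% and 26.1% of all tested genes were, with a median log2 fold change of 0.42 beside −0.01 over all genes. The ligands of the EGF receptor AREG, EREG and TGFA rose by 1.78, 2.84 and 1.27, with AREG going from 2.72 ± 0.829 to 9.18 ± 1.079 CPM. EREG had 2, 3 and 2 counts in shNC and entered the test only through shRRM2. The TNF receptor TNFRSF1B rose by 1.67 from 3.44 ± 0.204 CPM and E-cadherin (CDH1) by 1.43 from 0.860 ± 0.171 CPM. NOTCH2, IL6ST and TNFRSF1A were lower at −0.22, −0.18 and −0.17 (adjusted p = 1.05e-06, 3.64e-05 and 0.00204). NOTCH1 was at 179.6 ± 0.130 and 179.0 ± 2.299 CPM (adjusted p = 0.923).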

How the data were processed

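For each of 6 libraries the authors deposited raw read counts by NCBI Gene ID. The tools named, per the submitters' processing notes, are fastp 0.23.4 and featureCounts, and the build is hg38. The aligner, annotation release and settings for strand and shared reads were not given in these sources. Columns of the RRM2 libraries carry the prefix si where the labels have sh, and were matched by gene name and number. RefSeq (GRCh38.p14) gave symbols for 40120 of 42902 IDs.

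Genes were kept with filterByExpr (minimum count 10), scaled with TMM and tested with edgeR 4.0.16 in R 4.3.3 (robust quasi-likelihood fit, group alone, two-sided), adjusted by Benjamini-Hochberg over 15866 genes with a threshold of 0.05. CPM were computed from the deposited counts. Each SE was obtained as |log2 fold change| over the root of the F statistic. Transcript lengths are from GENCODE 29 (principal transcript). On simulated counts for shRRM2 against shNC with 15866 genes, 69.9% of 1.5-fold, 87.8% of 2-fold and 98.8% of 4-fold changes were recovered and 6.57% of calls were false. Each of 5 draws changed 200 genes, whereas 52.1% of the tested genes passed in the data. These shares therefore hold for the simulated setting and may not carry over. Alternatives were RLE factors, library size alone, other filters, DESeq2 1.42.0, limma-voom (limma 3.58.1), the replicate block, a threshold of 0.01 and each library left out.

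The genes and lists were chosen with earlier results of these data known. Values in every library are given for members past the threshold and changed by 0.5 or more on the log2 scale, the TIMPs and the member of each class with the highest CPM per kb. From each other list, up to 5 genes with the largest changes and defining partners are named. ADAM10, ADAM17 and the genes of the chromosome 11 cluster were added after their values were seen. The planned search for protein motifs was not run.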

Additional observations from a re-analysis of the deposited data

How the results depend on the processing

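The count of higher genes of the 4 families, 13, stayed between 11 and 15 under all alternatives run, and that of lower genes, 7, was less stable. The lower count was 4 with library size alone, 4 with DESeq2, 3 at an adjusted p of 0.01, and 3 to 6 when each library was left out in turn (11 to 14 for the higher count). The cause was not tested. Of the called genes, 11 of 13 higher and 2 of 7 lower (ADAM11 and ADAM15) kept their call in all settings run for them. Genes with differences near 0 changed sign. With library size alone the log2 fold change was 0.0258 for ADAMTS1, 0.0330 for NOTCH1 and 0.00804 for RECK, with a filter of 1 CPM in 3 libraries 0.00433 for NOTCH1, and with limma-voom −0.0710 for MMP25. When each library was left out it ran from −0.0763 to 0.0614 for ADAMTS1, −0.0448 to 0.665 for ADAMTS4, −0.0461 to 0.0814 for MMP17, −0.303 to 0.372 for MMP25, −0.0262 to 0.0204 for FURIN, −0.0122 to 0.0118 for NOTCH1 and −0.0631 to 0.0184 for RECK. With the replicate number as a block, 13 family genes were higher and 8 lower and MMP25 was at −0.00792, and MMP9 passed (−1.36, adjusted p = 0.0442), as it did with no filter (adjusted p = 0.0467). Same-numbered libraries did not deviate together (correlations of −0.0208 to −0.00339), and no library correlated best with its own number. Deviations from means of 3 libraries cannot show whether replicates were handled in pairs. The ratio of TIMP RNA to that of the other 3 families was 1.31 times higher with CPM sums without length. At the depth of these libraries, genes below about 0.560 CPM were not testable.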

Other observations

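Other metalloproteases of the secretory pathway and cell surface, outside the 4 families, were counted in the same libraries. Of 21 listed, 9 were tested, 7 were higher and 0 lower in shRRM2, and 2 did not pass, where 26% of all tested genes were higher and 26.1% lower. ANPEP, an aminopeptidase of epithelial and myeloid cells, rose from 152.2 ± 7.69 to 291.0 ± 3.72 CPM (SD, n = 3 each, log2 fold change 0.93, edgeR adjusted p = 1.45e-20). BMP1, the procollagen C-proteinase, rose from 150.4 ± 1.94 to 187.7 ± 2.58 CPM (0.32, adjusted p = 3.36e-09). The carboxypeptidases CPM and CPD rose by 1.15 and 0.39, and PAPPA, which cleaves IGF-binding proteins, by 0.35.

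The ADAMTS-like proteins share the repeats of ADAMTS enzymes but have no protease domain. Of 7 listed, 5 were tested, 3 were higher and 1 lower, where 52.1% of all tested genes passed in either direction. THSD4, a microfibril protein, fell from 51.8 ± 2.76 to 33.0 ± 1.82 CPM (−0.65, adjusted p = 2.74e-10), while ADAMTSL5, ADAMTSL4 and ADAMTSL2 rose by 0.47, 0.19 and 0.79. The call of ADAMTSL2 (adjusted p = 0.0427) was lost with DESeq2 and without shNC replicate 1, shNC replicate 3, shRRM2 replicate 2 or shRRM2 replicate 3 (adjusted p = 0.0792, 0.156, 0.106, 0.206 and 0.0529).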
